A study of Saccharomyces cerevisiae with 16 samples.

Results

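The 9 genes described here encode enzymes of, or serving, the route from intracellular sulfate to sulfide and then homocysteine in the yeast Saccharomyces cerevisiae. They were taken by name from an array that reads 6227 genes, and all 9 were among the 6165 genes tested: MET3 (YJR010W), MET14 (YKL001C), MET16 (YPR167C), MET22 (YOL064C, also HAL2), MET5 (YJR137C, also ECM17), MET10 (YFR030W), MET1 (YKR069W), MET8 (YBR213W) and MET17 (YLR303W, also MET15 and MET25). Total RNA of 4 lines of cells was measured at 0, 45, 90 and 150 min after methionine was taken out of the medium, with 1 single-colour array for each line and time, 16 in all. Lines H, 170 and WT carry a version of HOG1, the gene for the mitogen-activated protein kinase of the high-osmolarity response, placed behind the MET3 promoter in hog1Δ cells. Line vec, the control, is JBY13 cells with an empty plasmid. Line WT is labelled HOG1WT. The labels of the other two conflict: line H has the source name HOG1D170A but is described only as H, and line 170 has the source name HOG1D170A+F318L but is described as D170A, so no mutation is assigned to either. In all 4 lines methionine removal is the treatment, and no culture kept in methionine past 0 min was analysed here. MET3 itself is therefore both a member of the pathway and the gene whose promoter drives the introduced HOG1. The MET3 probe is named for MET3 and not for the construct, and its place within the transcript is not given.

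Yeast takes up sulfate through permeases and activates it with ATP before it can be reduced, first to sulfite and then to sulfide, which is joined to a carbon chain to give homocysteine, the precursor of methionine and cysteine. The transcription factor Met4, brought to DNA by Cbf1 or by Met31 and Met32, switches this set of genes on when methionine and cysteine run low, and the ubiquitin ligase subunit Met30 restrains it when they are plentiful. The MET3 promoter is widely used in yeast as a switch that methionine turns off.

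Levels below are log2 processed signal minus the 75th percentile of the same array, so 0 is that percentile, and levels of different genes are not set against each other because each comes from its own probe. Each member had 1 probe, printed in 2 spots, which lay well above background and unsaturated on all 16 arrays. The 2 spots differed by a median of 0.06 log2 units and by at most 0.34 over the 144 pairs. The 75th percentile signal ran from 4930 to 11304 units and 94.0% to 99.0% of probes lay well above background. Lines H and WT shared 1 slide and lines 170 and vec shared the other, so a constant level difference between H or WT and vec cannot be told apart from the slide. No line and time was repeated, and the number of arrays limits the precision. Errors and p-values from limma measure how steady a change was over lines, or a line difference over times, and not how much cultures vary. Bulk RNA also cannot separate a change per cell from a change in the mix of cells.

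The transcript of HOG1 (YLR113W) was read to set the labels against the data. Its level was 1.65, 5.54, 5.44 and 5.41 in line H at 0, 45, 90 and 150 min, 1.51, 6.12, 6.01 and 6.16 in line 170, 1.90, 5.64, 5.49 and 5.74 in line WT, and -1.67, -2.31, -2.12 and -2.14 in vec. All 12 values of the lines with a HOG1 gene lay above all 4 values of vec. The stretch of HOG1 removed from the genome and the place of the probe in it are not given in the sources used here.

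The first question was which steps of the pathway changed after methionine was removed. Of the 9 genes, those of sulfate activation rose most. MET3, the ATP sulfurylase gene, stood at -2.84, -2.73, -2.82 and -2.48 in lines H, 170, WT and vec at 0 min, and 45 min later at 2.65, 2.65, 2.71 and 1.44. It then stood at 2.32, 2.60, 1.32 and 2.73 after 90 min, and finally at 2.45, 2.88, 2.56 and 3.21 at 150 min. All 12 later values lay above all 4 values at 0 min, vec was the lowest line at 45 min, and WT was the lowest line at 90 min. Over the 4 lines MET3 rose by 5.08 ± 0.33 at 45 min (SE, limma, adjusted p = 5e-08), which is 33.8-fold, and by 5.18 ± 0.27 over the 3 later times (adjusted p = 7.4e-09).

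MET14 encodes adenylylsulfate kinase, which phosphorylates the product of ATP sulfurylase to give the activated sulfate donor. Its levels were -1.35, -1.49, -1.32 and -1.45 in lines H, 170, WT and vec at 0 min, and 3.62, 3.89, 3.90 and 2.80 at 45 min. At 90 min they were 3.40, 3.60, 2.83 and 4.0, and at 150 min 3.22, 3.77, 3.76 and 4.24. The later values again lay clear of those at 0 min, with vec lowest at 45 min and highest afterwards. MET14 rose by 4.96 ± 0.29 at 45 min (limma, adjusted p = 2.8e-08) and by 4.99 ± 0.24 over the later times (adjusted p = 4.9e-09).

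MET16 and MET22 act on the activated sulfate donor and its by-product, and neither was called higher over the 4 lines. MET16 encodes the reductase that releases sulfite from activated sulfate. It stood at 0.75, 0.76, 0.61 and -0.09 in lines H, 170, WT and vec at 0 min, at 1.37, 1.63, 1.44 and -0.15 at 45 min, at 1.01, 1.18, 0.41 and 1.66 at 90 min, and lastly 0.92, 1.20, 1.29 and 1.83 at 150 min. The values in vec were the lowest at 0 and 45 min and the highest at 90 and 150 min, and the later levels overlapped those at 0 min. MET16 did not pass the test at 45 min over the 4 lines (0.57 ± 0.39, limma, adjusted p = 0.20) or over the later times (0.64 ± 0.31, adjusted p = 0.078). In lines H, 170 and WT alone it was higher at 45 min by 0.77 ± 0.16 (limma, adjusted p = 0.0017), and by 0.46 ± 0.13 over the later times (adjusted p = 0.01). That fit leaves out vec, in which MET16 changed by -0.06 at 45 min, and is no separate test. Over the later times MET16 was also called higher when arrays were scaled to their median, without the vec array at 45 min and without the WT array at 90 min.

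MET22 encodes the phosphatase that clears the adenosine bisphosphate left when sulfite is released. Its levels were -0.27, -0.49, -0.29 and -0.87 in lines H, 170, WT and vec at 0 min, -0.84, -1.03, -0.65 and -1.93 at 45 min, -1.19, -1.38, -1.61 and -0.86 at 90 min, and -1.13, -1.28, -0.85 and -0.49 at 150 min. In lines H, 170 and WT every later value lay below that line's own value at 0 min, while in vec the values at 90 and 150 min were at or above it. MET22 fell by 0.78 ± 0.28 at 90 min (limma, adjusted p = 0.022) and by 0.62 ± 0.22 over the later times (adjusted p = 0.023). Its changes at 45 min (-0.63 ± 0.28, adjusted p = 0.055) and 150 min (-0.45 ± 0.28, adjusted p = 0.16) did not pass. Both calls were lost in fits without line H, without line 170 or without line WT, and that for the later times also when arrays were scaled to their median, where 0 members were called lower. Without line vec MET22 was lower by 0.75 ± 0.11 over the later times (limma, adjusted p = 1.1e-04). That fit leaves out the only line with values at or above its own value at 0 min, and is no separate test.

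The subunits of sulfite reductase, which makes sulfide from sulfite, both rose. MET5, the beta subunit gene, stood at -0.13, -0.63, -0.24 and -0.90 in lines H, 170, WT and vec at 0 min, at 3.83, 3.80, 3.88 and 2.24 at 45 min, at 3.30, 3.04, 2.78 and 3.42 at 90 min, and lastly 3.03, 3.11, 3.57 and 4.10 at 150 min. MET10, the alpha subunit gene, stood at 0.60, 0.41, 0.54 and 0.12 at 0 min, at 3.01, 3.20, 2.91 and 1.48 at 45 min, at 3.03, 3.08, 2.37 and 2.89 at 90 min, and lastly 2.88, 3.42, 3.25 and 3.79 at 150 min. In both genes vec was the lowest line at 0 and 45 min and the highest at 150 min, and no later value overlapped those at 0 min. MET5 rose by 3.91 ± 0.36 at 45 min (limma, adjusted p = 9.5e-07) and MET10 by 2.23 ± 0.32 (adjusted p = 3.8e-05).

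Sulfite reductase needs siroheme, and the genes of siroheme synthesis rose as well. MET1, the uroporphyrinogen III methyltransferase gene, stood at 0.55, 0.64, 0.73 and -0.27 in lines H, 170, WT and vec at 0 min, at 2.85, 3.08, 3.19 and 1.95 at 45 min, at 2.07, 2.0, 1.69 and 3.10 at 90 min, and lastly 1.55, 1.97, 2.0 and 2.78 at 150 min. MET8, the dehydrogenase and ferrochelatase gene that completes siroheme, stood at -1.14, -1.18, -1.15 and -1.02 at 0 min, at 1.46, 1.69, 1.43 and 0.83 at 45 min, at 0.91, 0.79, 0.18 and 1.81 at 90 min, and lastly 0.49, 0.86, 0.64 and 1.20 at 150 min. Both were highest at 45 min in lines H, 170 and WT and at 90 min in vec, and in every line no later value reached down to that at 0 min. MET1 rose by 2.36 ± 0.38 at 45 min (limma, adjusted p = 1.2e-04) and MET8 by 2.47 ± 0.27 (adjusted p = 3.8e-06).

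MET17 encodes the O-acetylhomoserine sulfhydrylase that fixes sulfide into homocysteine. It stood at 2.98, 2.84, 2.94 and 2.43 in lines H, 170, WT and vec at 0 min, at 5.04, 5.24, 5.20 and 4.71 at 45 min, at 4.63, 4.86, 4.37 and 5.25 at 90 min, and lastly 4.84, 5.25, 5.15 and 5.69 at 150 min. The later values lay clear of those at 0 min in every line. MET17 rose by 2.25 ± 0.22 at 45 min (limma, adjusted p = 1.5e-06).

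Counted together, 7 of the 9 genes were called higher at 45 min, where 31.8% of all genes tested were called higher, 44.5% lower and 76.3% in either direction. At 90 min 7 were called higher and 1 lower, against 33.7% and 41.0% of all genes, and at 150 min 7 were called higher and 0 lower, against 33.5% and 40.0%. For the mean of the later times the count was again 7 higher and 1 lower, against 34.8% and 44.3%. The median change of the members at 45 min was 2.36 log2 units, and the median over all genes tested was -0.17. The same 7 genes (MET3, MET14, MET5, MET10, MET1, MET8 and MET17) were the ones called higher at each time.

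**Figure D1:**
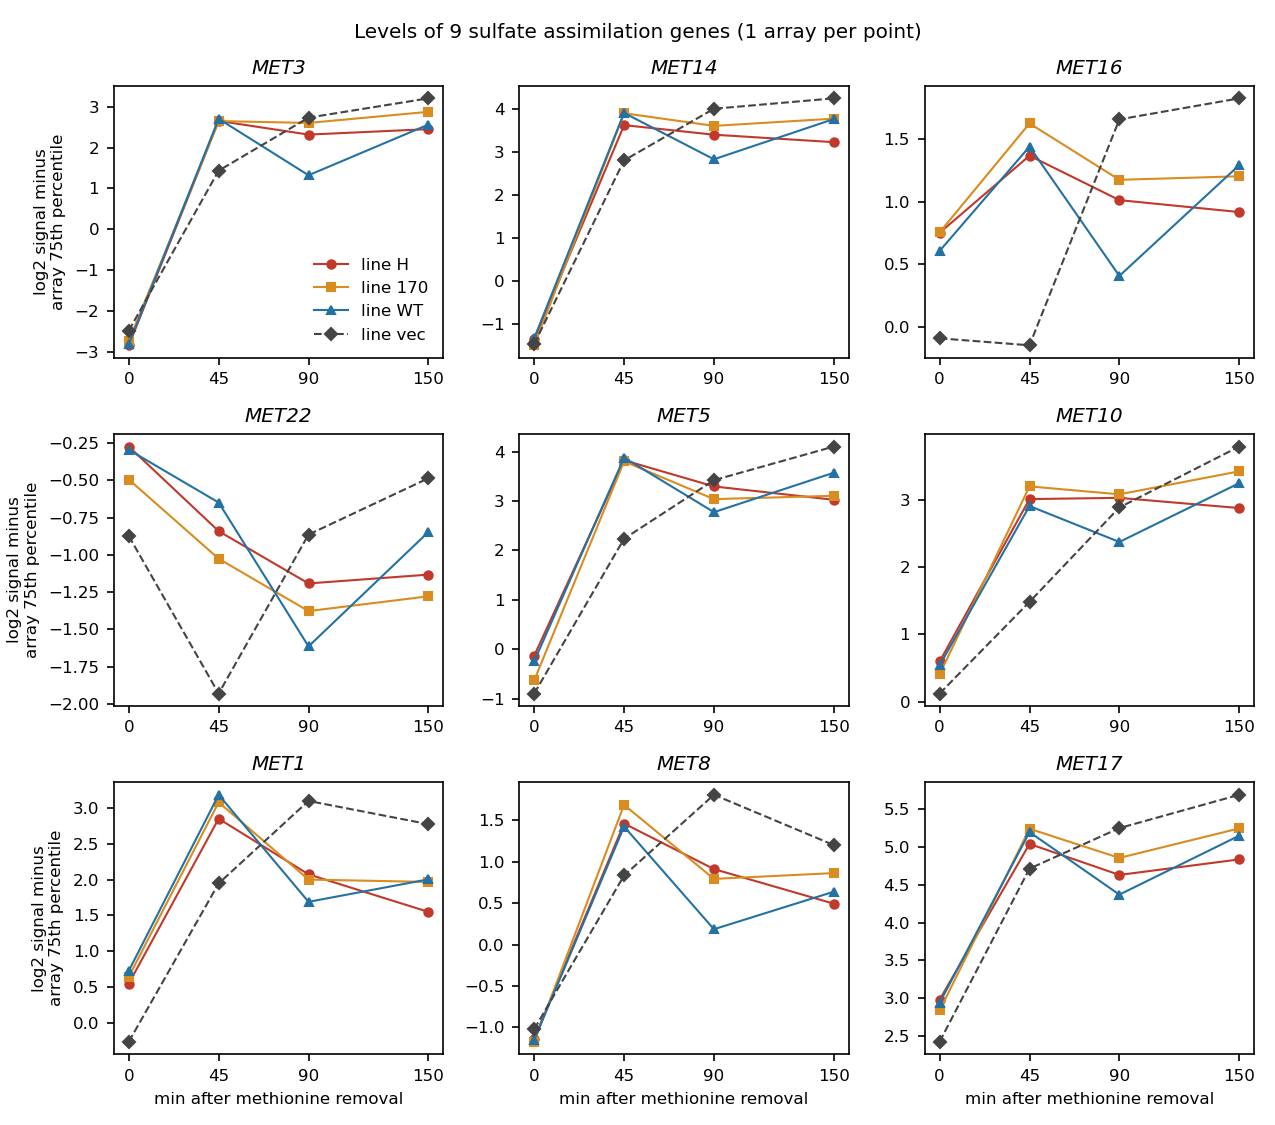
Level of each of the 9 genes (vertical axis, log2 signal minus the array's 75th percentile) against minutes after methionine removal, with 1 line per line of cells and 1 array per point; each panel has its own vertical scale. In line vec (dashed) MET3 stands at 1.44 at 45 min and climbs to 3.21 at 150 min, while in line WT it dips to 1.32 at 90 min, and MET22 is the one gene that lies below its starting level at every later time in lines H, 170 and WT.

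The next question was how MET3 kept pace with the rest of the pathway within each line. Changes from 0 min were compared, so that no probe's level was set against another's. MET3 rose by 5.50, 5.38, 5.52 and 3.92 at 45 min in lines H, 170, WT and vec, which are rises of 45.1-fold, 41.7-fold, 46.0-fold and 15.1-fold. MET14 rose by 4.97, 5.38, 5.22 and 4.25. The mean excess of MET3 over MET14 was 0.13, 0.11 and 0.35 log2 units at 45, 90 and 150 min, with MET3 ahead in 3, 2 and 3 of 4 lines (exact sign-flip permutation over lines, two-sided p = 0.625, 0.5 and 0.25). Single lines ran from -0.34 to 0.53 at 45 min, so the sign of this difference varied between lines.

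MET3 was ahead of every member other than MET14 in 4 of 4 lines at each of the 3 times, which makes 21 of the 24 comparisons made. The mean excess at 45, 90 and 150 min was 1.17, 1.36 and 1.57 over MET5, 2.85, 2.54 and 2.58 over MET10, and 2.83, 2.98 and 3.06 over MET17. It was 2.72, 3.16 and 3.83 over MET1, and 2.61, 2.92 and 3.57 over MET8. It was widest over the genes that were not called higher, at 4.51, 4.41 and 4.69 over MET16 and 5.71, 5.74 and 5.95 over MET22. Each of the 21 had an exact two-sided p of 0.125, which is the smallest that 4 lines allow, and an adjusted p of 0.143 over the 24 comparisons, so none could pass the threshold.

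The members also differed in when they reached their later level. Among the 7 genes called higher, the log2 rise at 45 min was 104% to 230% of that at 150 min in line H, 92.6% to 184% in line 170 and 87.4% to 193% in line WT. In vec it was 37.1% to 83.5%. The lowest shares were those of MET10 in lines 170, WT and vec and of MET3 in line H, and the highest were those of MET1 in lines H, 170 and WT and of MET8 in vec. For MET3 the shares were 104%, 96.0%, 103% and 68.9% in lines H, 170, WT and vec. In the lines with a HOG1 gene MET1 and MET8 dropped back furthest after 45 min. The mean of 90 and 150 min minus 45 min was -1.04, -1.10 and -1.34 for MET1 in lines H, 170 and WT, and -0.76, -0.86 and -1.01 for MET8.

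**Figure D2:**
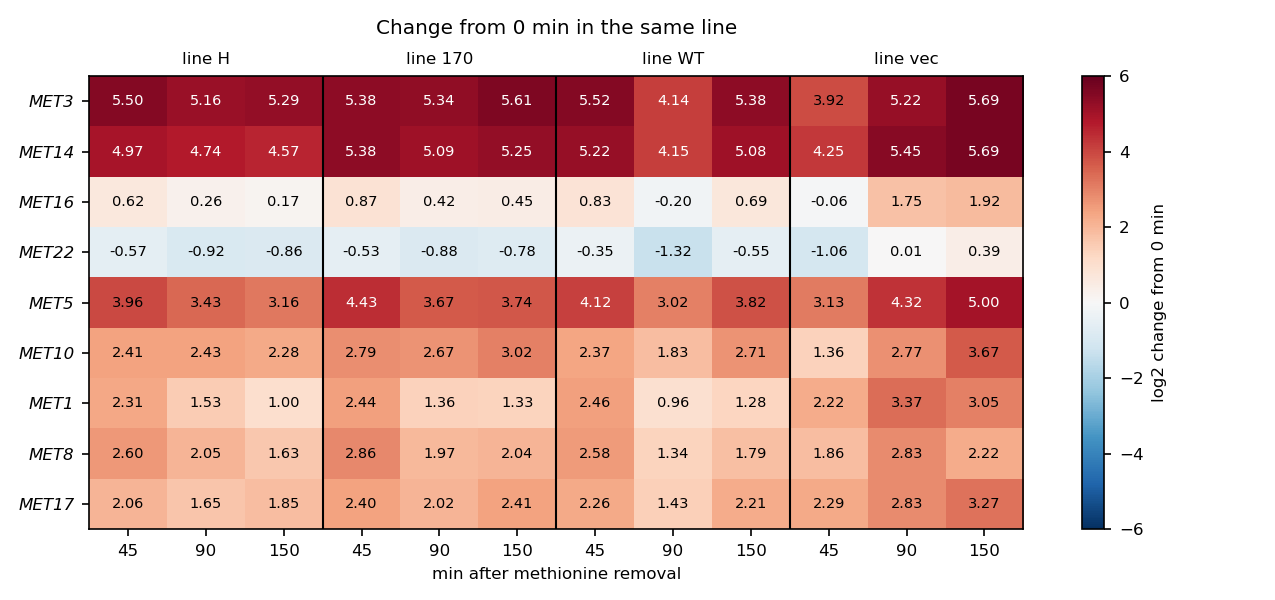
Log2 change of each gene from 0 min in the same line, at 45, 90 and 150 min, with the lines from left to right as H, 170, WT and vec and each cell 1 array minus 1 array. MET3 and MET14 form the darkest rows, at 5.50 and 4.97 in line H at 45 min, MET16 and MET22 the palest, and MET3 in line vec reads 3.92, 5.22 and 5.69 over the later times.

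Over the 4 lines together no step after 45 min was called for any member. In the change of 90 min against 45 min 0 of 9 passed, and 0 at an unadjusted p under 0.05 (limma), where 24.3% of all genes were called. For 150 min against 90 min the counts were 0 and 0, against 3.70% of all genes, and for the mean of 90 and 150 min against 45 min 0 and 0, against 42.4%. The sign of the change from 45 to 90 min differed between the lines. The change of 90 min against 45 min was negative for 8 of 9 members in line H (median -0.36), for 9 of 9 in line 170 (median -0.39) and for 9 of 9 in line WT (median -1.07). In vec it was positive for 9 of 9 (median 1.19). Between 90 and 150 min 3, 8, 9 and 7 of 9 members moved up in lines H, 170, WT and vec, with medians of -0.15, 0.10, 0.80 and 0.38. In line WT all 9 members thus moved down and then up, MET3 by -1.38 and then 1.24 and MET1 by -1.50 and then 0.31. Over all genes tested the median change of 90 min against 45 min was 0.06, 0.10, 0.07 and 0.00 in lines H, 170, WT and vec.

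A fit of lines H, 170 and WT leaves out vec, the only line in which all 9 members moved up from 45 to 90 min. It was chosen with earlier results of these data known, so its counts describe these lines and are no separate test of the step. In it 6 of the 9 genes were called lower at 90 min than at 45 min, where 15.6% of all genes were called lower. They were MET1 (-1.12 ± 0.14, limma, adjusted p = 6.6e-04), MET8 (-0.90 ± 0.15, adjusted p = 0.0024), MET5 (-0.80 ± 0.17, adjusted p = 0.007), MET16 (-0.61 ± 0.16, adjusted p = 0.016), MET22 (-0.56 ± 0.13, adjusted p = 0.01) and MET17 (-0.54 ± 0.13, adjusted p = 0.0099). MET3 (-0.59 ± 0.23, adjusted p = 0.068), MET14 (-0.53 ± 0.20, adjusted p = 0.057) and MET10 (-0.21 ± 0.18, adjusted p = 0.37) did not pass. The 95% interval was -1.11 to -0.07 for MET3 and -0.62 to 0.19 for MET10. The same 6 genes were called lower for the mean of 90 and 150 min against 45 min, where 22.9% of all genes were called lower, and MET1 was again lowest (-1.16 ± 0.12, adjusted p = 9e-05).

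The third question was whether the lines differed. Averaged over 45, 90 and 150 min, 0 of 9 members were called in line H against vec, in line 170 against vec or in line WT against vec, and 0 at an unadjusted p under 0.05 in each (limma), where 49.6%, 32.3% and 29.6% of all genes were called. MET3 differed by 0.02 in H minus vec (95% interval -0.94 to 0.97), by 0.25 in 170 minus vec (-0.71 to 1.21) and by -0.26 in WT minus vec (-1.22 to 0.70). These means joined times of opposite sign. At 45 min all 9 members were higher than in vec in lines H, 170 and WT, by medians of 1.09, 1.14 and 1.27. At 90 min 8, 8 and 9 of 9 were lower than in vec, by medians of -0.60, -0.40 and -1.17, and at 150 min 9 of 9 were lower in each line, by medians of -0.91, -0.47 and -0.54. For some members the gap at 45 min was largely there at 0 min, as for MET1 in H minus vec (0.81 and then 0.91). The change from 0 to 45 min was lowest in vec for every member but MET17, which rose by 2.06, 2.40, 2.26 and 2.29 in lines H, 170, WT and vec. The median level over all genes tested at 45 min was -1.34, -1.37, -1.34 and -1.36.

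A fit that leaves out 45 min drops the one later time at which all 9 members lay above vec, and it was chosen with values of these data known, so its counts describe 90 and 150 min and are no separate test of the lines. In it the mean of 90 and 150 min was called lower than in vec for 5 genes in line H (MET14, MET16, MET1, MET8 and MET17), for 2 in line 170 (MET22 and MET1) and for 5 in line WT (MET3, MET16, MET1, MET8 and MET17). Of all genes 23.8%, 16.1% and 8.60% were called lower in these comparisons. MET1 passed in all 3, at -1.13 ± 0.20, -0.95 ± 0.20 and -1.09 ± 0.20 (limma, adjusted p = 0.0052, 0.014 and 0.014). These are differences in level, so for H and WT against vec a constant slide difference cannot be told apart, while 170 and vec shared a slide. The 3 comparisons share the vec arrays. Before removal, at 0 min, 0 of 9 members were called in any of them and 0 at an unadjusted p under 0.05 (limma), against 32.1%, 30.6% and 24.5% of all genes. The medians there were 0.56, 0.29 and 0.51 log2 units, with 7, 6 and 7 of 9 genes higher than in vec. With 1 array per line at 0 min, the error came only from the later times, where members lay above vec at 45 min and below it at 150 min. In H minus vec the 95% intervals of members at 0 min reached from -2.02 to 2.76, with MET16 at 0.84. The 0 calls at 0 min therefore do not show that the lines were alike, and the next fit takes its error from the same times. The change from 0 min to the mean of the later times also gave 0 of 9 calls and 0 at an unadjusted p under 0.05, against 18.4%, 21.0% and 8.30% of all genes. In that change MET3 differed by 0.38 in H minus vec (95% interval -1.54 to 2.29), by 0.50 in 170 minus vec (-1.41 to 2.42) and by 0.08 in WT minus vec (-1.84 to 1.99).

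The difference in timing was then tested directly, as the late step: the level averaged over 90 and 150 min less that at 45 min, taken within a line and then compared with vec, a contrast in which a constant slide or level difference cancels. MET3 had a late step of -0.27, 0.09, -0.76 and 1.54 in lines H, 170, WT and vec, and MET16 had -0.40, -0.44, -0.59 and 1.89. All 9 late steps were positive in vec, from 0.67 to 1.89, and all 9 were negative in lines H (-1.04 to -0.06) and WT (-1.34 to -0.10). In line 170 7 were negative and 2 positive (-1.10 to 0.09). The late step was lower than in vec for 9 of 9 members in each line, by -2.29 to -1.06 in line H, -2.33 to -0.95 in line 170 and -2.48 to -1.19 in line WT. For MET3 the differences were -1.80 ± 0.45, -1.44 ± 0.45 and -2.30 ± 0.45 (limma, adjusted p = 0.10, 0.15 and 0.097).

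None of these differences passed the adjustment over all genes. The adjusted p ran from 0.061 to 0.14 in line H, from 0.07 to 0.15 in line 170 and from 0.066 to 0.17 in line WT (limma), while 9 of 9 had an unadjusted p under 0.05 in each line. Of all genes 0.308%, 0.227% and 0.162% were called lower. The 95% interval of every member lay below 0 in each line, with the highest upper bound at -0.37, -0.35 and -0.60. The members' medians were -1.80, -1.56 and -1.95, and those of all genes tested were 0.04, 0.04 and 0.07. The 9 genes all lay among the 105, 129 and 101 lowest of the 6165. The fit had 3 residual degrees of freedom, the 3 comparisons share the vec arrays, and each rests on the single vec array at 45 min. The mean late step of lines H, 170 and WT minus that of vec, a comparison added after the values were seen, was called lower for 5 of 9 members, where 1.28% of all genes were called lower. These were MET16 (-2.37 ± 0.33, limma, adjusted p = 0.032), MET5 (-2.23 ± 0.37, adjusted p = 0.042), MET1 (-2.15 ± 0.28, adjusted p = 0.031), MET22 (-1.66 ± 0.25, adjusted p = 0.039) and MET17 (-1.07 ± 0.20, adjusted p = 0.048). MET3 was at -1.85 ± 0.36 (adjusted p = 0.053). The errors of this comparison likewise hold no variation at 45 min.

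**Figure D3:**
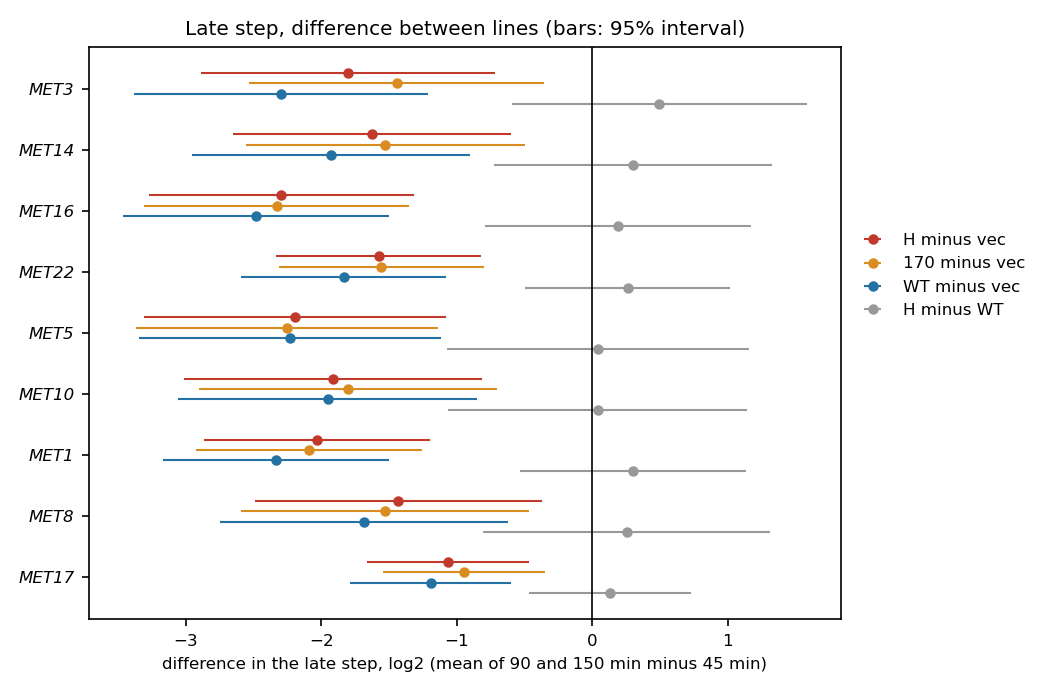
Difference between lines in the late step (horizontal axis, log2, mean of 90 and 150 min minus 45 min in the first line minus the same in the second) for each gene, with points for the estimate and bars for the 95% interval of the fit. The bars take their error from the 90 and 150 min arrays only and hold no variation at 45 min. All points for H, 170 and WT against vec lie below 0, between -2.48 and -0.95, and those for H against WT lie between 0.04 and 0.49 with intervals that include 0.

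Lines H and WT, which share a slide, were compared in the same ways. After removal 0 of 9 members were called and 0 at an unadjusted p under 0.05 (limma), where 5.97% of all genes were called, and MET3 differed by 0.28 (95% interval -0.68 to 1.24). By time, line H minus WT was positive for 2 of 9 members at 45 min, 9 of 9 at 90 min and 0 of 9 at 150 min, with medians of -0.07, 0.57 and -0.37. At 90 min the level of MET3 was 2.32 in line H and 1.32 in line WT. The late step differed by 0.04 to 0.49 with 0 of 9 called and 0 at an unadjusted p under 0.05, and 0 of all 6165 genes were called. The interval for MET3 was -0.59 to 1.58. At 0 min and in the change from 0 min 0 of 9 were called and 0 at an unadjusted p under 0.05 (limma), against 0.0162% and 0% of all genes.

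The changes of MET3 and of HOG1, which was introduced behind the MET3 promoter, were then set side by side. Of the 32 HOG1 spots on the 16 arrays 0 were marked saturated. At 45 min HOG1 was higher than at 0 min by 3.89, 4.62 and 3.74 in lines H, 170 and WT, and MET3 by 5.50, 5.38 and 5.52. Between 45 and 90 min HOG1 changed by -0.11, -0.11 and -0.15 in these lines, and MET3 by -0.34, -0.05 and -1.38. The dip of MET3 in line WT at 90 min was shared by all 9 members (-1.50 to -0.53), while HOG1 on the same array moved by -0.15. The differences between both genes were not tested.

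Likeness to MET3 was measured as Pearson's r over the 16 arrays after each line was centred on its own mean, as a description, since all genes share the arrays and the step at 45 min. Among the members r was 0.997 for MET14, 0.988 for MET5, 0.979 for MET17, 0.972 for MET10, 0.947 for MET8, 0.877 for MET1, 0.634 for MET16 and -0.468 for MET22. Ranked among all genes tested, without MET3, these 8 stood at 1, 4, 8, 18, 213, 778, 1782 and 3453. Many genes outside the members thus had a higher r than MET8, MET1 or MET16. The 5 genes with a symbol outside the members that had the highest r were SUL2 (0.990), CYS3 (0.989), YKT6 (0.985), MET32 (0.980) and RSC8 (0.979). SUL2 encodes a sulfate permease, CYS3 cystathionine gamma-lyase, MET32 a DNA-binding partner of Met4, YKT6 a membrane-fusion SNARE and RSC8 a subunit of a chromatin remodelling complex. SUL2 was higher than at 0 min by 4.39, 4.76, 4.61 and 2.16 at 45 min in lines H, 170, WT and vec, and by 3.91, 4.43, 4.63 and 4.55 at 150 min. YKT6 was higher by 1.11, 1.08, 1.16 and 0.58 at 45 min and by 1.03, 1.28, 1.11 and 0.95 at 150 min.

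The rest of the sulfur pathway was read from a list of 35 genes in 5 sub-lists, of which 34 were tested. SUL3 was not matched by symbol. At 45 min 17 of the 34 were called higher, 3 lower and 14 not called (limma), with a median change of 0.62, where 31.8% of all genes were called higher and 44.5% lower. Shares of sub-lists are read against these. The transporters had the highest median of the 5 sub-lists, 3.67: 5 of 7 were called higher and 0 lower, among them MMP1 (4.44 ± 0.39), an S-methylmethionine permease gene, SUL2 (3.98 ± 0.42) and MUP1 (3.90 ± 0.41), the high-affinity methionine permease gene. Of the genes of methionine synthesis and the methyl cycle 7 of 11 were called higher and 1 lower, with SAM1, an S-adenosylmethionine synthetase gene, at 3.38 ± 0.30, MHT1, the S-methylmethionine homocysteine methyltransferase gene, at 2.91 ± 0.34 and MET2, the homoserine acetyltransferase gene, at 2.58 ± 0.53.

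Of the 6 genes of cysteine and glutathione synthesis 2 were called higher and 1 lower, shares near or below those of all genes (31.8% and 44.5%). CYS3 (3.50 ± 0.18) and CYS4 (2.26 ± 0.17), whose products turn homocysteine into cysteine, rose, while STR2 (-2.86 ± 0.11), which encodes an enzyme of the opposite route, fell. Among the 6 regulators MET32 rose (5.23 ± 0.34) and MET4 fell (-1.14 ± 0.14), and 4 were not called. MET28, the partner of Met4 and Cbf1, was at -0.39 ± 0.34. Of the 4 genes of reductant supply TRR1 (1.03 ± 0.10), for thioredoxin reductase, and TRX2 (0.32 ± 0.10), for a thioredoxin, were called higher, and TRX1, the other thioredoxin gene, was at 0.61 ± 0.27 (adjusted p = 0.053).

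The late step of the same 34 genes was negative against vec for 28 in line H, 30 in line 170 and 28 in line WT, with medians of -0.93, -0.66 and -1.13, against 0.04, 0.04 and 0.07 for all genes tested. In H minus vec 4 of the 34 were called lower and 1 higher (limma), against 0.308% and 0.746% of all genes. In 170 minus vec 3 were called lower, against 0.227%, and in WT minus vec 2, against 0.162%, with 0 called higher in either. The 7 transporters had medians of -1.78, -0.82 and -1.44 and were negative in all 3 lines, 7 of 7 each. The 4 genes of reductant supply had medians of 0.02, 0.01 and -0.07.

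**Figure D4:**
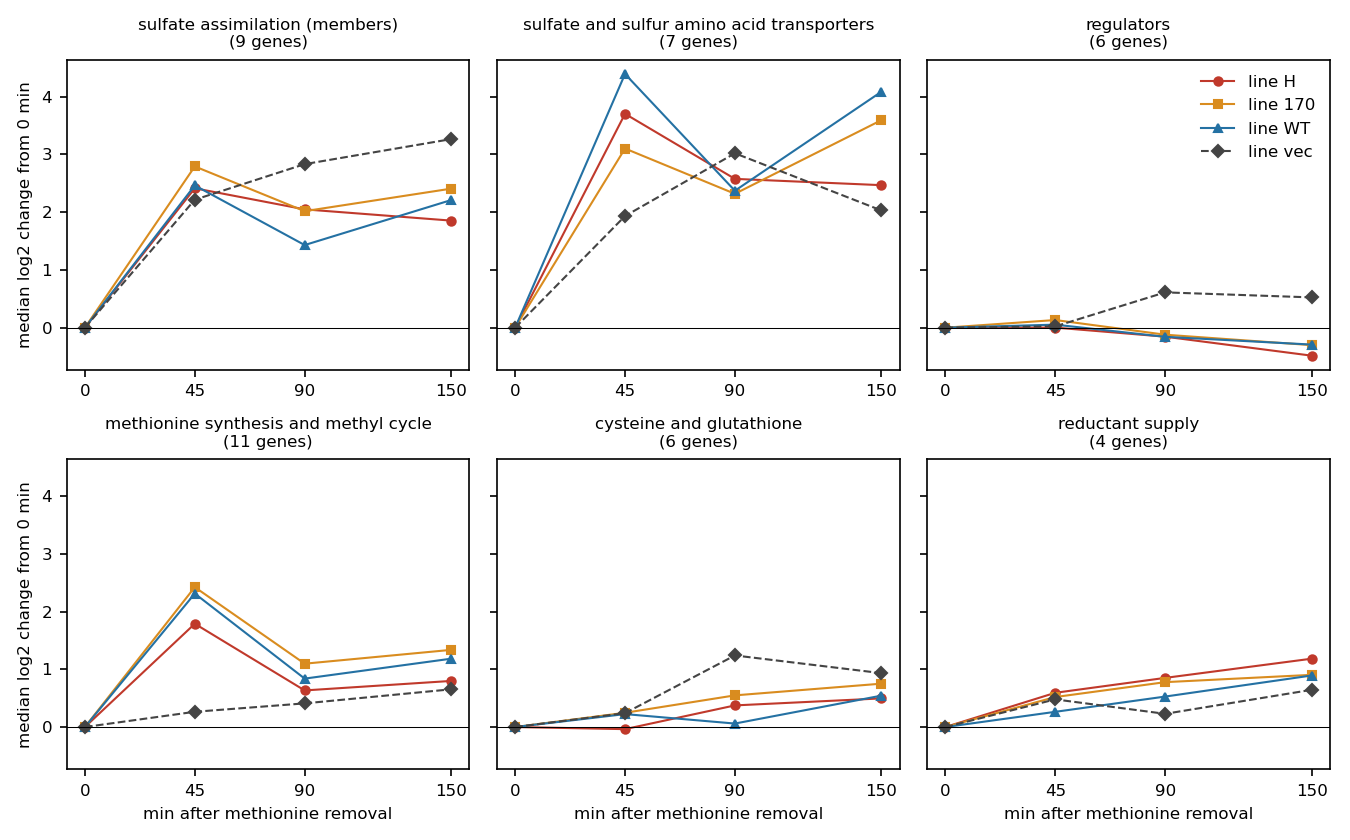
Median log2 change from 0 min (vertical axis) of the 9 sulfate assimilation genes and of each of the 5 sub-lists of the sulfur pathway, by line, against minutes after methionine removal; each point is a median over the genes named above the panel, from 1 array minus 1 array. The medians of the transporters at 45 min lie higher in lines H, 170 and WT than in vec, and those of the regulators stay within 1 log2 unit of 0.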

How the data were processed

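Per the file headers, the authors' deposited scanner files hold a processed intensity for each spot, background-subtracted and detrended by Agilent Feature Extraction 10.7.1.1 and not scaled between arrays. The deposited value table holds the authors' log2 values for 6107 of the 6256 probes, centred per slide as its values show, and served as an alternative. The lowest correlation between its changes from 0 min and the ones used here was 0.998 over 12 changes. That table gave no difference in level across slides. It gave changes within a line, contrasts of them, and level differences between the lines of 1 slide, in all of which the centring cancels. Here the log2 of the processed intensity was averaged over the 2 spots of a probe, and the array's 75th percentile was subtracted. A spot marked as an outlier was left out where the other spot of its probe was not so marked. For the 9 members both spots were used on all 16 arrays. Genes whose probe was well above background on at least 3 arrays were kept, and the brightest probe stood for each of the 28 genes with several. This left 6165 genes, 5713 of which matched a RefSeq gene table of another assembly, used for names only, so no positions or sequences are given.

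Every model was fitted to the 6165 genes with lmFit and eBayes of limma 3.58.1 (R 4.3.3), two-sided, and adjusted by Benjamini-Hochberg over all of them at 0.05. The time contrasts used 16 arrays with a term for line, and differences after removal on the 12 later arrays with a term for time. Differences at 0 min and in the change from 0 min came from 16 arrays with an interaction of line and the later times beside both main terms, and those in the late step from the 12 later arrays with an interaction of line and late time. The alternatives changed background correction, scaling, filter, values, variance model, threshold, and the lines, times, slide or arrays in the fit. The members, lists and comparisons were chosen with earlier results of these data known. The rule for naming took all 9 members, HOG1, the 5 genes most like MET3, and up to 3 genes of a sub-list by absolute change at 45 min.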

Additional observations from a re-analysis of the deposited data

Results flagged for a closer look

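For 8 of the 9 genes the change of 90 min against 45 min was positive in line vec and negative in each of lines H, 170 and WT. The change in vec was 1.30 for MET3, 1.20 for MET14, 1.81 for MET16 and 1.07 for MET22. It was 1.19 for MET5, 1.15 for MET1, 0.98 for MET8 and 0.54 for MET17. MET10 did not meet this condition, since it moved by 0.02 in line H. Each value is 1 array minus 1 array, the difference between lines in this step was not tested, and all 8 use the same vec arrays. The related late step was tested and did not pass for any member in any single line. No line and time had enough arrays to look for an outlying one.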

How the results depend on the processing

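Over 21 alternatives, 2528 of 2619 values for the 9 genes kept their direction and side of the threshold or changed sign without being called. 12 called values lost their call, 77 gained one and 2 called in an alternative had the opposite sign. These were MET16 (-0.48) and MET22 (-0.40) for 90 and 150 min against 45 min without line vec. For changes from 0 min no member changed sign. The mean excess of MET3 over each other member kept its sign in all 120 values. Those came from only 5 alternatives, none of which left out a line or an array. Scaling to the array median and averaging a gene's probes could not move them, since both genes share the arrays and each member had 1 probe. In single lines the sign of MET3 against MET14 varied, as given above. MET22 was the member called lower, and the counts of members called lower moved from 1 to 0 for the later times with median scaling, and for both the later times and 90 min at a threshold of 0.01, without line H, 170 or WT, and on the slide of 170 and vec. At 90 min the count was also 0 without the WT array at 90 min. It moved from 0 to 1 at 45 min with a trended and robust variance, without vec, and without the WT array at 90 min, and at 150 min without vec and on the slide of H and WT.

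For 90 against 45 min the members called lower were 6 without vec, 4 on the slide of H and WT and 1 without the vec array at 45 min, against 0, with 15.6%, 7.95% and 11.4% of all genes called lower in the same fits. For 90 and 150 against 45 min they were 6, 3 and 2, with 22.9%, 17.6% and 17.1%. For 150 against 90 min 1 was called higher without vec (5.87% of all genes). Without 45 min, members called lower after removal were 5, 2 and 5 in lines H, 170 and WT against vec, and 4, 4 and 3 for the change from 0 min (11.5%, 11.3% and 4.74% of all genes). For the late step they were 4 and 3 in H and WT with normexp (1.04% and 0.730% of all genes), 3 and 1 with probes above background on all 16 arrays (1.0% and 0.397% of 5796 genes), and 3, 2 and 3 in H, 170 and WT with a trended and robust variance (0.989%, 0.714% and 0.633%). All genes thus gained calls as well, against 0.308%, 0.227% and 0.162%. For the mean of the 3 lines against vec the count of 5 (1.28% of all genes) became 8 with normexp (1.80%), the filter on all 16 arrays (1.98%), the deposited table (1.51%) or the trended variance (2.09%), 3 with quantile scaling (1.15%) and 0 at 0.01, where 0 of all genes passed. The deposited table serves here because the contrast is of changes within lines. The alternatives that left out single arrays, and the mean of 3 lines, were chosen after seeing the data, and the fits without 45 min or without vec with earlier results of these data known. The causes of these moves were not tested. With 1 array each, the spread between cultures is unknown.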
